A study of Mus musculus with 8 samples.

Results

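Apolipoproteins and the enzyme that loads lipid onto them were followed through liver RNA-seq of mice with and without a hepatocyte deletion of Nnmt. The genes were chosen by symbol from the deposited count table, as Apoa1, Apoa2, Apoa4, Apoa5, Apob, Apoc1, Apoc3, Apoe, Apom and Mttp. All 10 were found among the 33212 genes of the table, and all 10 were among the 15291 genes with enough counts to test. The livers came from male C57BL/6 mice that carried floxed Nnmt alleles. In the 4 Nnmt LKO mice an Alb-Cre transgene, which acts in hepatocytes, deleted the gene, and the 4 Control mice, labelled WT, were floxed without Cre. For 8 weeks both groups ate a diet without methionine and choline (MCD diet), and the age of the mice is not given in the sources used here. Each library was 1 column of the table, named by genotype without a mouse number, so libraries are lettered a to d within a genotype. Total counts ran from 75020072 to 87934362 per library.

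Apolipoproteins are the protein coat of the particles that carry lipid in blood. Apob forms the backbone of very low density lipoprotein (VLDL), and Mttp, the large subunit of the microsomal triglyceride transfer protein, loads lipid onto it in the endoplasmic reticulum of hepatocytes. Apoa1 and Apoa2 are the main proteins of high density lipoprotein (HDL), and the small exchangeable apolipoproteins move between particles and control their lipases and receptors. The MCD diet bears on this pathway because choline is a building block of phosphatidylcholine, which the liver needs to export VLDL. Nnmt uses methyl groups from S-adenosylmethionine, which is made from methionine, to methylate nicotinamide. The comparison asks how the loss of Nnmt in hepatocytes bears on the transcripts of lipoprotein assembly under this diet.

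The deleted gene was measured first. Nnmt counts were 2910, 3617, 5770 and 5950 in Nnmt LKO libraries a to d and 9308, 16996, 11611 and 7139 in Control libraries a to d. After scaling by edgeR's TMM method to CPM (counts scaled to a common library total), every Nnmt LKO library lay below every Control library, with 83.0 CPM in Nnmt LKO d next to 84.9 CPM in Control d. The log2 fold change was -1.28 (SE 0.33), with an adjusted p = 0.123 over all tested genes in edgeR's quasi-likelihood test. The exact permutation test over the 8 libraries, two-sided and without correction for the number of genes, gave p = 0.0286, the smallest that 4 against 4 allow. Each exact p below is of this kind. Nnmt transcript therefore remained in every Nnmt LKO liver. Whether it came from hepatocytes or other cells of the tissue was not tested.

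One library stood apart before any apolipoprotein was compared. Nnmt LKO a had a TMM factor of 1.21, against 0.952 to 0.977 in the other 3 Nnmt LKO libraries, and Control b had the lowest factor of all, 0.876. The 12 hepatocyte markers, all tested and led by Alb, summed to 101987 CPM in Nnmt LKO a and to 150248, 163365 and 160529 CPM in Nnmt LKO b to d. In Control a to d they summed to 152225, 175152, 124718 and 138179 CPM, so Nnmt LKO a was the lowest of the 8 libraries and Control b the highest. The 14 Kupffer cell and macrophage markers, led by Lyz2 and all tested, summed to 2167, 1228, 1162 and 1148 CPM in Nnmt LKO a to d. Their sums were 963.8, 1042, 1322 and 2149 CPM in Control a to d, so 1 library of each genotype was far above the others. The 8 stellate cell and fibroblast markers, led by Dcn and all tested, summed to 913.6, 524.5, 477.5 and 514.6 CPM in Nnmt LKO a to d and to 358.5, 380.2, 563.1 and 562.7 CPM in Control a to d. The 6 cholangiocyte markers, led by Spp1, summed to 278.9, 100.7, 89.0 and 177.1 CPM in Nnmt LKO and to 49.9, 61.5, 167.4 and 89.4 CPM in Control. None of these markers was at 0. All 8 stellate cell and fibroblast markers had fitted values above 0, with a median log2 fold change of 0.37. With edgeR 3 of them (37.5%) had an unadjusted p under 0.05, against 12.6% of all tested genes. Without Nnmt LKO a their median was -0.13, and none did. The 6 cholangiocyte markers also all had fitted values above 0, 1 of them at an unadjusted p under 0.05. Their median was 0.51, and 0.18 without Nnmt LKO a. In whole liver, fewer cells of a type and less RNA per cell cannot be told apart, and the part of these markers in the results on apolipoproteins was not tested.

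The other marker lists were summed in the same way. The 7 sinusoidal endothelial markers, led by Ehd3, summed to 283.9 ± 30.8 CPM in Nnmt LKO and 275.7 ± 73.5 CPM in Control (SD, n = 4 each). The 5 erythroid markers, led by Hbb-bs, summed to 680.3 ± 74.6 and 768.2 ± 178.6 CPM, in the same order of genotypes. All 5 had fitted values below 0. With edgeR 1 of them (Alas2) had an unadjusted p under 0.05, where 12.6% of all tested genes did. Without Nnmt LKO a none of the 5 erythroid markers did. Of 6 lymphocyte markers, all tested and led by Nkg7, the sums were 3.37 ± 0.543 and 2.67 ± 0.145 CPM. Of 5 neutrophil markers, 4 were tested and led by S100a9, with sums of 8.47 ± 4.13 and 8.61 ± 3.33 CPM, and Ly6g was at 0 in every library. The intestine also makes Apob, Apoa1 and Apoa4, so enterocyte markers were measured. Of 6, Lct and Sis were too low to test, and the other 4, led by Fabp2, a gene that liver may express at a low level, summed to 46.3 ± 8.36 CPM in Nnmt LKO and 45.2 ± 14.1 CPM in Control. Most of this sum is Fabp2, and the other 3 had fitted values above 0, 1 of them (Vil1, at 6.50 CPM in Nnmt LKO and 4.52 CPM in Control) at an unadjusted p under 0.05 with edgeR. Of 6 pancreatic acinar markers, 2 were tested, led by Cela1, with 9.75 ± 0.8002 and 11.4 ± 2.55 CPM, Cpa1 and Pnlip were at 0, and Amy2b was not matched.

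All 10 genes were expressed in these livers, over a wide span of levels. Levels of different genes were compared per exon length, as TPM (counts per exon length, scaled to a common total). In Control livers Apoe, the ligand that remnant particles offer to hepatic receptors, came first at 36598 ± 1196 TPM (SD, n = 4) and was the transcript with rank 2 of the whole table, after Alb at 73162 ± 7925 TPM. Apoa2 followed at 23669.5 ± 3114 TPM, then Apoa1 at 11132 ± 2821 TPM and Apoa4 at 8184 ± 1902 TPM, and the libraries of Apoa1 and Apoa4 overlapped. Next were Apoc1 at 4189.8 ± 142.2 TPM, Apoc3 at 2873 ± 121.8 TPM and Apoa5 at 2539 ± 410.1 TPM, where Apoc3 and Apoa5 did not differ beyond their spread. Apob at 398.2 ± 89.8 TPM and Apom at 395.2 ± 42.6 TPM were level with each other, and Mttp was lowest at 105.2 ± 3.46 TPM. In Nnmt LKO livers the order was the same, except that Apoa5 (2579 ± 365.9 TPM) and Apoc3 (2574 ± 411.1 TPM) were level, but Apob, at 463.1 to 584.1 TPM, lay above Apom, at 353.0 to 418.96 TPM, in every library.

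Between genotypes, none of the 10 genes reached an adjusted p under 0.05 with edgeR, where 0.320% of all tested genes did. None passed an unadjusted p of 0.05 either, where 12.6% of all tested genes did, 5.45% higher and 7.13% lower in Nnmt LKO. Apob and Mttp, the genes of VLDL assembly, had fitted values above 0, and the other 8 genes had fitted values below 0, although those of Apoa5 turned above 0 with libraries scaled by total count or by hepatocyte markers. The median log2 fold change was -0.21 over the 10 genes and 0.02 over all tested genes, and that of the 10 genes became -0.04 without Nnmt LKO a and -0.09 without Control b. The 12 hepatocyte markers had a median of -0.16, with 8 fitted below 0 and 4 above, and of -0.07 without Nnmt LKO a. Apob was the only gene of the 10 whose libraries did not overlap between genotypes, where 8.16% of all tested genes did not. DESeq2's Wald test put Apob, Apoc1 and Apoe at an unadjusted p under 0.05, 3 of 10 against 10.6% of the genes it tested, and limma voom only Apob. Of the 12 hepatocyte markers, DESeq2's test put 4 (33.3%) under that threshold, 1 higher and 3 lower in Nnmt LKO. Neither tool gave any of the 10 an adjusted p under 0.05.

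**Figure D1:**
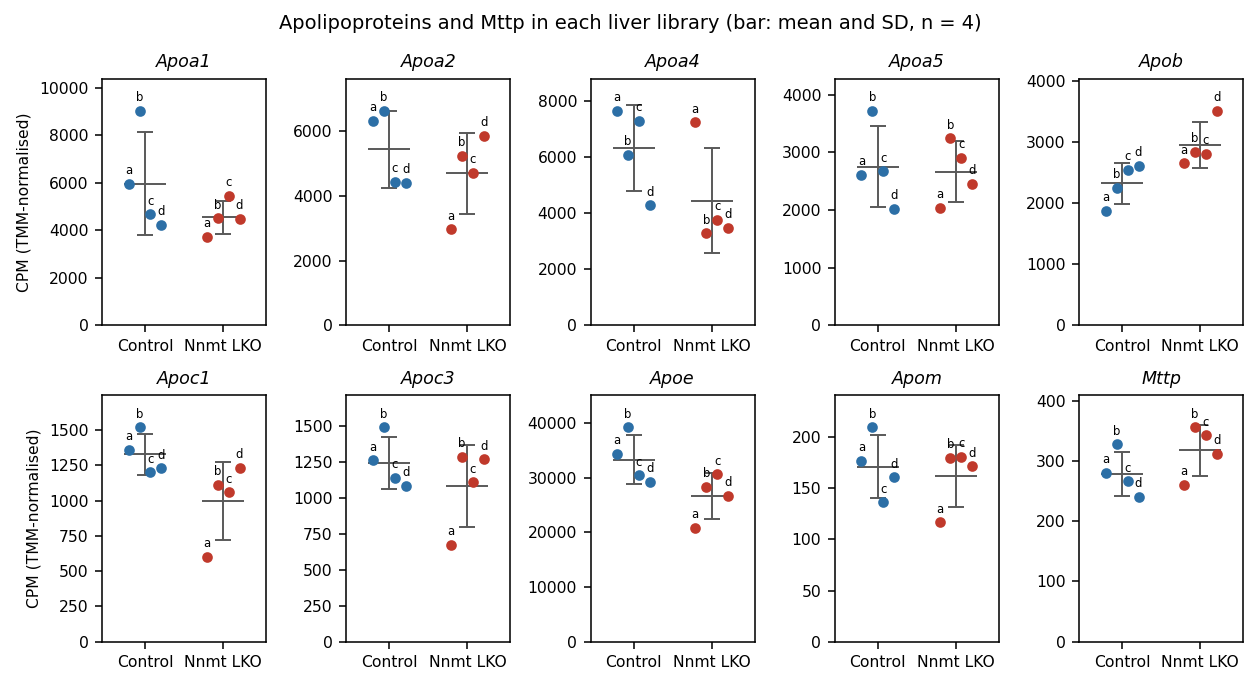
Each panel plots 1 gene in CPM after TMM scaling, with blue points for Control and red points for Nnmt LKO libraries a to d, and bars for the mean and SD (n = 4). Apob separates the genotypes, Apoa4 of Nnmt LKO a lies apart from Nnmt LKO b to d, and Nnmt LKO a is the lowest of the 8 libraries for 6 of the 10 genes.

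Apob (ENSMUSG00000020609, chromosome 12, 7977648 to 8016835 in GRCm38) was at 2657, 2847, 2810.2 and 3514 CPM in Nnmt LKO a to d and at 1878, 2254, 2553 and 2619 CPM in Control a to d. The lowest Nnmt LKO library was thus just above the highest Control library. The means were 2957 ± 380.2 and 2326 ± 338.2 CPM (SD, n = 4 each), so Nnmt LKO was at 127.1% of Control. The log2 fold change was 0.35 (SE 0.16, 95% interval -0.01 to 0.70), with an adjusted p = 0.405 by edgeR and the smallest exact permutation p, 0.0286. Without Nnmt LKO a the value was 0.39 (adjusted p = 0.294 with edgeR), and over all alternatives the adjusted p ran from 0.187 to 0.951. With libraries scaled by total count only, Control d, at 2785 CPM, passed Nnmt LKO b and c, at 2782 and 2676 CPM, and the genotypes overlapped.

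Mttp (ENSMUSG00000028158, chromosome 3, 138089854 to 138144968) moved over a narrower span. It was at 259.98, 355.4, 342.2 and 312.1 CPM in Nnmt LKO a to d and at 279.5, 327.5, 265.7 and 240.3 CPM in Control a to d. The genotypes overlapped, with Nnmt LKO a among the Control libraries. The log2 fold change was 0.19 (SE 0.14, 95% interval -0.12 to 0.50, adjusted p = 0.615 with edgeR, exact permutation p = 0.229). The value was 0.29 without Control b, 0.13 without Control d and 0.36 without both Nnmt LKO a and Control b. With libraries scaled by total count only, the 4 Nnmt LKO libraries, at 298.2 to 347.3 CPM, lay above the 4 Control libraries, at 255.6 to 286.9 CPM, with an adjusted p = 0.426 by edgeR (from 0.207 to 0.9997 over all alternatives). P4hb, protein disulfide isomerase, is the partner subunit of Mttp and has many other clients. It was at 3055 ± 260.4 CPM in Nnmt LKO and 3759 ± 890.6 CPM in Control (SD, n = 4 each), with a log2 fold change of -0.30 (SE 0.18, adjusted p = 0.536 with edgeR, exact permutation p = 0.200). This became -0.14 without Control b and -0.09 without both Nnmt LKO a and Control b, and -0.43 without Control d, where the unadjusted p with edgeR was under 0.05. Apobec1, the editor of Apob mRNA, was at 16.2 ± 6.59 and 15.8 ± 5.41 CPM in Nnmt LKO and Control, a log2 fold change of 0.04 (SE 0.28), which became -0.29 without Nnmt LKO a and 0.27 without Control d.

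Apoe (ENSMUSG00000002985, chromosome 7, 19696109 to 19699188) was at 20819, 28359, 30641 and 26721 CPM in Nnmt LKO a to d and at 34446, 39264, 30479 and 29304 CPM in Control a to d. Nnmt LKO a was lowest and Control b highest, and only Nnmt LKO c reached into the range of the Control libraries. The log2 fold change was -0.33 (SE 0.20, 95% interval -0.76 to 0.11, adjusted p = 0.528 with edgeR, exact permutation p = 0.0857). The spread within each genotype depended on the scaling. With total count only, Nnmt LKO libraries had 25159 to 29180 CPM and Control libraries 31172 to 34404 CPM, without overlap. On that scale the log2 fold change was -0.28 (SE 0.09), with an adjusted p = 0.286 by edgeR, the lowest of the alternatives, which ran to 0.819.

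Apoc1, which slows the uptake of remnants and is the neighbour of Apoe, was at 599.6, 1109, 1057 and 1233 CPM in Nnmt LKO a to d and at 1359.7, 1519, 1199 and 1228 CPM in Control a to d. Nnmt LKO a was far below the other libraries. The log2 fold change was -0.41 (SE 0.21, 95% interval -0.86 to 0.05, adjusted p = 0.442 with edgeR, exact permutation p = 0.0857). Without Nnmt LKO a it was -0.23 (SE 0.13, adjusted p = 0.4996 with edgeR). With total count only, Nnmt LKO libraries, at 724.6 to 1179 CPM, lay below Control libraries, at 1255 to 1331 CPM, with an adjusted p = 0.381 by edgeR, and over all alternatives the adjusted p ran from 0.324 to 0.741. Of the other 2 genes of this cluster, Apoc2, the cofactor that lipoprotein lipase needs, was at 474.4 ± 21.1 CPM in Nnmt LKO and 639.9 ± 124.7 CPM in Control (SD, n = 4 each). Under TMM scaling its libraries did not overlap, and the log2 fold change was -0.43 (SE 0.15, adjusted p = 0.248 with edgeR, exact permutation p = 0.0286). In TPM they did, as Nnmt LKO a, at 1807, lay above Control a and d, at 1776 and 1665. With hepatocyte marker scaling the unadjusted p of Apoc2 was over 0.05, and without Control b its value was -0.29. Apoc4 had a log2 fold change of -0.31 (SE 0.19, adjusted p = 0.526 with edgeR, exact permutation p = 0.286), -0.17 (SE 0.15) without Nnmt LKO a and -0.19 without Control b. An annotated gene, Gm44805, spans both Apoc4 and Apoc2 on the same strand and is not in the count table, so reads of such a transcript cannot be told apart from theirs.

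Apoa4, a lipid-binding protein of HDL and triglyceride-rich particles that mouse liver makes, divided the Nnmt LKO libraries most. It was at 7238, 3277, 3761 and 3474 CPM in Nnmt LKO a to d and at 7639, 6064, 7296 and 4276 CPM in Control a to d. Nnmt LKO b, c and d lay below every Control library, while Nnmt LKO a lay beside the highest Control libraries. With all 8 libraries the log2 fold change was -0.51 (SE 0.28, 95% interval -1.12 to 0.10, adjusted p = 0.479 with edgeR, exact permutation p = 0.114). Without Nnmt LKO a it was -0.85 (SE 0.20, adjusted p = 0.0782 with edgeR), and over all alternatives the adjusted p ran from 0.0674 to 0.9997. In that fit 2 of the 10 genes, Apoa4 and Apob, had an unadjusted p under 0.05, against 13.3% of all tested genes, and none had an adjusted p under 0.05, against 0.963%. Apoa4 and Apob were also the 2 genes whose remaining libraries did not overlap, where 13.5% of all tested genes did not.

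Apoa4 shares its end with an antisense gene, Gm10680, over 839 bases. Gm10680 was at 127.8, 26.7, 29.9 and 24.1 CPM in Nnmt LKO a to d and at 130.0, 89.5, 97.0 and 37.7 CPM in Control a to d, the same pattern of libraries as Apoa4. Since no source states that the counting used strand, reads of the 2 genes cannot be told apart.

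The other 5 genes had smaller differences or wider spreads in edgeR's test. Apoa1 (ENSMUSG00000032083) was at 4537 ± 710.2 CPM in Nnmt LKO and 5966 ± 2164 CPM in Control (SD, n = 4 each), where Control b reached 9023 CPM and the other 7 libraries had 3709 to 5945 CPM. Its log2 fold change of -0.40 (SE 0.24, adjusted p = 0.531 with edgeR, exact permutation p = 0.257) became -0.11 without Control b, and -0.04 without both Nnmt LKO a and Control b. Apoa2, at 4696 ± 1245 and 5450.4 ± 1190.1 CPM, had a log2 fold change of -0.21 (SE 0.23). Apoc3, which holds back lipoprotein lipase and remnant uptake, had -0.20 (SE 0.20), and Apoa5, which promotes the action of the lipase, -0.05 (SE 0.21). Apom, the HDL carrier of sphingosine 1-phosphate, had -0.08 (SE 0.17). The log2 fold changes without Nnmt LKO a were -0.31 for Apoa1, -0.05 for Apoa2, -0.03 for Apoc3, 0.06 for Apoa5 and 0.05 for Apom. Those without Control b were -0.10 for Apoa2, -0.09 for Apoc3, 0.14 for Apoa5 and 0.05 for Apom. The exact permutation p-values of Apoa2, Apoc3, Apoa5 and Apom were 0.457, 0.486, 0.857 and 0.686, and edgeR's adjusted p-values 0.740, 0.728, 0.943 and 0.890. The 95% intervals were -0.73 to 0.30 for Apoa2, -0.65 to 0.25 for Apoc3, -0.51 to 0.42 for Apoa5 and -0.45 to 0.30 for Apom, so changes within these intervals are not excluded.

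**Figure D2:**
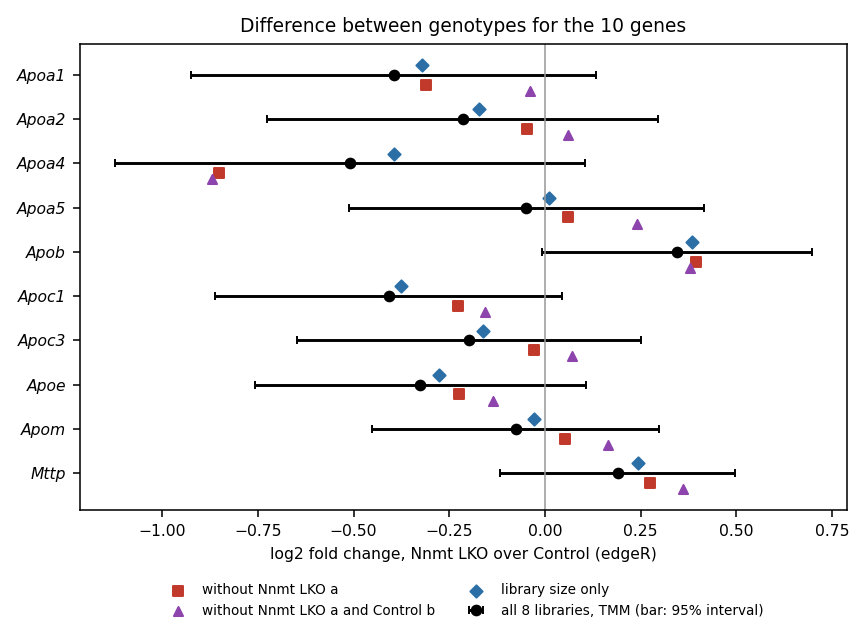
Log2 fold changes of the 10 genes in edgeR's test, with black points and 95% intervals for all 8 libraries under TMM scaling, and coloured marks for libraries scaled by total count, for the fit without Nnmt LKO a, and for the fit without Nnmt LKO a and Control b. Every black interval includes 0, and without Nnmt LKO a the mark of Apoa4 moves to -0.85 while those of Apoa5 and Apom lie above 0.

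Nnmt LKO a was the lowest library for 6 of the 10 genes and Control b the highest for 7, and these were the libraries with the highest and the lowest TMM factor. With total count only, they were lowest for 5 and highest for 6 of the 10 genes. Summed over the 10 genes, TMM-scaled levels were 41072, 50392, 52979 and 49505 CPM in Nnmt LKO a to d and 61914, 70500.0, 54841 and 49571 CPM in Control a to d. As a percentage of all counts, the same sums were 4.96, 4.92, 5.05 and 4.73 in Nnmt LKO a to d and 5.90, 6.18, 5.74 and 5.27 in Control a to d. On this simple scale the genotypes did not overlap, and most of the sum is Apoe. By total count, 4 of the 10 genes (Apob, Apoc1, Apoe and Mttp) had an unadjusted p under 0.05 with edgeR, against 9.40% of all tested genes. Of the 12 hepatocyte markers, 5 (41.7%) did in the same fit, 2 higher and 3 lower in Nnmt LKO. The genes without overlap by total count were Apoc1 and Apoe, lower in Nnmt LKO, and Mttp, higher, 3 of 10 against 6.68% of all tested genes. With hepatocyte marker scaling 4 of the 10 (Apoa1, Apob, Apoc1 and Apoe) had an unadjusted p under 0.05, against 5.19%, and only Apoc1 and Apoe did not overlap, where 3.61% of all tested genes did not. This scaling sets the summed hepatocyte markers level between libraries, so the shares of all genes are not a like comparison for hepatocyte genes. The SE of Apoe was 0.09 there and 0.20 under TMM, and that of Apob 0.18 and 0.16. Without both libraries of extreme factor, 3 genes (Apoa4, Apob and Mttp) had an unadjusted p under 0.05, against 13.1%.

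Ratios of 2 genes within a library do not depend on its scaling. The ratios here were chosen after the values were seen and carry no test. Apob per 100 Apoe, both in TPM, was 1.96, 1.54, 1.41 and 2.02 in Nnmt LKO a to d and 0.836, 0.881, 1.29 and 1.37 in Control a to d. Every Nnmt LKO liver thus had more Apob transcript per Apoe transcript than every Control liver, Nnmt LKO a included. Mttp per 100 P4hb was 4.48, 5.24, 4.82 and 4.58 in Nnmt LKO a to d and 3.30, 3.10, 3.46 and 4.07 in Control a to d, again without overlap. Apob per 100 Apoa1 overlapped, at 6.35, 5.61, 4.58 and 6.94 in Nnmt LKO a to d and 2.80, 2.22, 4.85 and 5.49 in Control a to d. The ratio of Apoc1 to Apoe and that of Mttp to Apob also overlapped between genotypes.

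Median fold changes were also taken by transcript length. Apob, with a longest transcript of 13934 bases, and Mttp, with 3963 bases, are the longest of the 10 genes, whose other longest transcripts have 518 to 2515 bases. Over all tested genes, the median log2 fold change was -0.04 for the 1052 genes with a longest transcript up to 1 kb and -0.06 for 2657 genes over 1 and up to 2 kb. It was -0.003 for the 6145 genes over 2 and up to 4 kb, the bin of Mttp, 0.08 for 4505 genes over 4 and up to 8 kb, and 0.15 for 787 genes over 8 kb, the bin of Apob. Without Nnmt LKO a these 5 medians were 0.01, -0.05, -0.02, 0.04 and 0.11. In both fits the medians rose from the bin over 1 and up to 2 kb upward, and the bin below it was not lower. Among genes with a mean of at least 100 CPM, the medians were -0.08 for 631 genes over 2 and up to 4 kb and 0.06 for 47 genes over 8 kb. Without Nnmt LKO a these were -0.02 and 0.05. The part of transcript length, or of RNA quality, in the values of Apob and Mttp was not tested.

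The genes lie in 6 places of the genome. Apoa1, Apoc3, Apoa4 and Apoa5 form a cluster on chromosome 9, at 46228580 to 46271919 (GENCODE, GRCm38), and Nnmt lies 2.32 Mb further along. Of 15 other tested genes within 1 Mb of the cluster, the median log2 fold change was 0.02. Within 5 Mb, 100 tested genes had a median of -0.04, with 4 higher and 11 lower by edgeR at an unadjusted p under 0.05. Of all tested genes 5.45% were higher and 7.13% lower at that threshold. Past Apoa5 lie 2 genes, chosen after their values were seen, whose levels were higher in every Nnmt LKO library than in every Control library. Bud13, a splicing factor gene, was at 17.1, 18.3, 14.0 and 15.4 CPM in Nnmt LKO a to d and at 8.35, 9.90, 9.33 and 6.37 CPM in Control a to d. Its log2 fold change was 0.93 (SE 0.16), and edgeR's adjusted p of 0.0456 ran from 2.38e-05 to 0.218 over the alternatives. The adjacent 4931429L15Rik was at 0.793 ± 0.221 and 0.149 ± 0.0842 CPM in Nnmt LKO and Control (SD, n = 4 each), with a log2 fold change of 2.40 (SE 0.49, adjusted p = 0.0725 with edgeR). Over the alternatives this adjusted p ran from 0.000488 to 0.264. Apoa5, the nearest apolipoprotein gene, had a log2 fold change of -0.05.

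**Figure D3:**
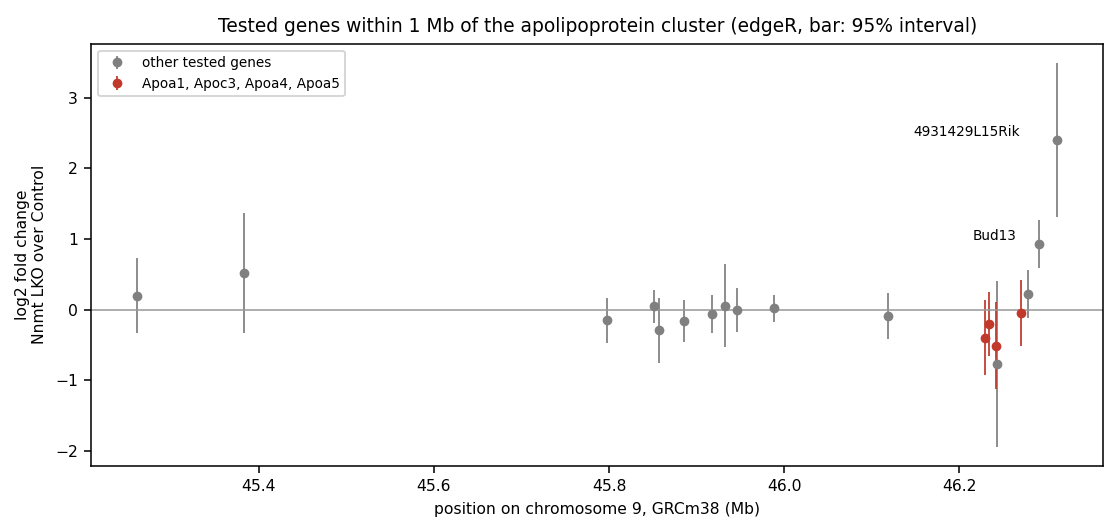
Tested genes within 1 Mb of the cluster on chromosome 9, by position in GRCm38 and log2 fold change with its 95% interval in edgeR's test, with Apoa1, Apoc3, Apoa4 and Apoa5 in red. The intervals of the 4 red genes include 0, and Bud13 and 4931429L15Rik, beyond Apoa5, lie above 0.

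Apoe and Apoc1 lie together on chromosome 7, where the 50 other tested genes within 1 Mb had a median log2 fold change of -0.13, with 2 higher and 5 lower by edgeR at an unadjusted p under 0.05, where 5.45% and 7.13% of all tested genes were. The 1154 tested genes of chromosome 7 had a median of -0.14, so the fitted values of Apoe and Apoc1 lie beside a chromosome median that is itself below 0. Around Apoa2, Apob, Apom and Mttp the medians were -0.01, 0.02, -0.04 and -0.01. Within 5 Mb these medians were 0.08, 0.05, -0.03 and -0.003, and that around Apoe and Apoc1 was -0.10.

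RefSeq promoters were available for 8 of the 10 genes, with 12 starts in all. In the 250 bases before the start, the letters TATAAA, read on the gene's strand, were present at 1 or more starts of 4 genes (Apoa2, Apoa5, Apob and Apoe) and of 8.94% of all 27025 genes with a promoter. On either strand and counted in the same way, CCAAT was present for 1 gene and 37.5% of all genes, AGGTCA for 1 gene and 15.8%, and GGGCGG for none of the 8 and 35.4%. The letters CAAAGTCCA, known for the binding of HNF4, were present for none of the 8 and for 0.451% of all genes. The promoter of Apob is shown because Apob was the gene of the 10 whose genotypes separated under TMM scaling. The 120 bases before the annotated gene, chr12:7977528-7977647 on the plus strand of GRCm38 (RefSeq), are given in lower case, with capitals for TATAAA.
Apob: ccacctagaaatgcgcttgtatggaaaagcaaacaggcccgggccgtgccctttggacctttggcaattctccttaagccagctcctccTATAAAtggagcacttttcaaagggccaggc
These matches describe the letters only, and no binding was measured.

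Transcription factors known to act at apolipoprotein genes were counted next. Of 31 such genes, all tested, 4 were higher and 8 lower in Nnmt LKO by edgeR at an unadjusted p under 0.05, 38.7% of the list against 12.6% of all tested genes. This list, like the others, was chosen with earlier results of these data known, so its share is a description and not an independent test. The median of the list was -0.07, and 9 of the 31 had libraries that did not overlap between genotypes, where 8.16% of all tested genes did not. None had an adjusted p under 0.05 with edgeR, and 5 did in DESeq2's Wald test, where 3.33% of the genes with an adjusted p did. Without Nnmt LKO a, 11 had an unadjusted p under 0.05, against 13.3% of all tested genes, and 1, Ppargc1a, an adjusted p under 0.05 with edgeR, against 0.963%. Without both Nnmt LKO a and Control b, 12 had an unadjusted p under 0.05, against 13.1%. In that fit 2, Ppargc1a and Prox1, had an adjusted p under 0.05 with edgeR, as did 206 of 15340 tested genes.

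Ppargc1a, a coactivator of fasting metabolism in liver, was at 15.4, 18.5, 23.1 and 26.6 CPM in Nnmt LKO a to d and at 12.9, 12.3, 10.5 and 11.8 CPM in Control a to d. Every Nnmt LKO library was above every Control library, and the log2 fold change was 0.82 (SE 0.17, adjusted p = 0.0711 with edgeR, exact permutation p = 0.0286). Over the alternatives its adjusted p ran from 0.00101 to 0.216. Cebpa, which keeps up many genes of the mature hepatocyte, was at 152.8, 187.2, 165.9 and 187.3 CPM in Nnmt LKO a to d and at 302.4, 303.4, 227.2 and 240.9 CPM in Control a to d. All Nnmt LKO libraries were lower, with a log2 fold change of -0.63 (SE 0.13, adjusted p = 0.0778 with edgeR, exact permutation p = 0.0286). Over the alternatives the adjusted p of Cebpa ran from 0.00119 to 0.291. Prox1, a corepressor of HNF4A, had a log2 fold change of 0.49 (SE 0.13, adjusted p = 0.120). Nr2f6, an orphan receptor that can bind sites of apolipoprotein genes, had -0.46 (SE 0.12, adjusted p = 0.119), and Srebf1, the regulator of fatty acid synthesis, -0.57 (SE 0.16, adjusted p = 0.160). These 5 factors had the smallest p-values of the list with edgeR, and their libraries did not overlap between genotypes (exact permutation p = 0.0286 each). Over the alternatives the adjusted p ran from 0.0157 to 0.543 for Prox1, 0.0180 to 0.884 for Nr2f6 and 0.0292 to 0.746 for Srebf1.

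Among factors named after their values were seen, Foxo1, known to drive Mttp and Apoc3, had a log2 fold change of 0.49 (SE 0.15, adjusted p = 0.194 with edgeR, exact permutation p = 0.0286). Foxa2 and Nr0b2, both regulators of hepatic lipid and bile acid genes, had -0.52 (SE 0.16) and -0.64 (SE 0.19). Hnf4a, the factor most closely tied to apolipoprotein promoters, was at 638.3 ± 152.2 CPM in Nnmt LKO and 564.5 ± 91.5 CPM in Control (SD, n = 4 each). The log2 fold change of Hnf4a was 0.18 (SE 0.19, adjusted p = 0.739 with edgeR, exact permutation p = 0.514), and 0.33 (SE 0.15) without Nnmt LKO a. Creb3l3, which drives Apoa4 in fasting, had 0.00 (SE 0.18).

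**Figure D4:**
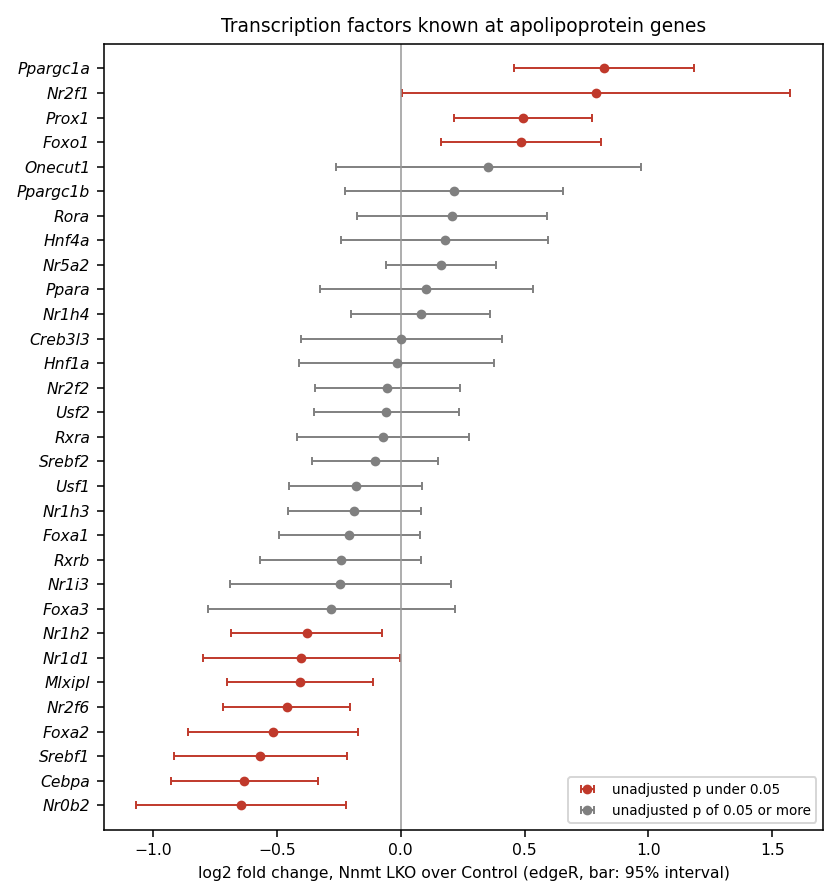
Log2 fold changes with 95% intervals (edgeR) for the 31 transcription factors, in red where the unadjusted p was under 0.05. The 4 red factors above 0 include Ppargc1a and Prox1, and the 8 below 0 include Cebpa, Srebf1 and Nr2f6.

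The remaining lists had counts nearer to the share of all tested genes, 12.6%. Of 22 other apolipoproteins and HDL-borne proteins 18 were tested, as Apol6, Apol8, Apol10a and Apol11b had too few counts, and 1 was higher and 3 lower by edgeR at an unadjusted p under 0.05 (22.2%). Pon2, a paraoxonase, was the higher one, at 61.1 ± 7.03 CPM in Nnmt LKO and 48.1 ± 7.27 CPM in Control (SD, n = 4 each). Pon2 had a log2 fold change of 0.34 (SE 0.13, adjusted p = 0.294 with edgeR, exact permutation p = 0.0857). Its unadjusted p with edgeR was over 0.05 without Control d (0.30), Nnmt LKO c (0.32) or Nnmt LKO d (0.28), and with hepatocyte marker scaling. The lower ones were Apoc2, Apof and Apol7a. Apof had -0.47 (SE 0.19, adjusted p = 0.325 with edgeR, exact permutation p = 0.0857), and Apol7a had -0.64 (SE 0.17, adjusted p = 0.130 with edgeR, exact permutation p = 0.0571). For Apof the value was -0.35 without Nnmt LKO a, -0.45 without Control a and -0.30 without Control b, with an unadjusted p over 0.05 in edgeR's test each time. None of the 18 had an adjusted p under 0.05 with edgeR, and 1 did in DESeq2's Wald test.

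Of 29 genes of VLDL assembly and secretion, all tested, 1 was higher and 2 lower by edgeR at an unadjusted p under 0.05 (10.3%), and the median log2 fold change was 0.02. Ces1g, a carboxylesterase of hepatic lipid handling, was at 110.0, 134.7, 187.1 and 126.8 CPM in Nnmt LKO a to d and at 108.5, 103.2, 70.03 and 91.8 CPM in Control a to d. Its genotypes met without overlap, with a log2 fold change of 0.58 (SE 0.18, adjusted p = 0.209, exact permutation p = 0.0286). Tmem41b, a lipid scramblase that lipoprotein export needs, had -0.41 (SE 0.13, adjusted p = 0.200, exact permutation p = 0.0571), and Pla2g12b, which helps to form large VLDL, had -0.27 (SE 0.10, adjusted p = 0.300, exact permutation p = 0.0286). For Pla2g12b the value was -0.24 without Nnmt LKO a, -0.25 without Nnmt LKO b and -0.20 without Control b, with an unadjusted p over 0.05 in edgeR's test each time.

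Of 10 genes of HDL formation and remodelling, 1 was higher by edgeR at an unadjusted p under 0.05. This was Lipg, endothelial lipase, at 57.2 ± 12.2 CPM in Nnmt LKO and 36.3 ± 10.6 CPM in Control (SD, n = 4 each), and its log2 fold change was 0.66 (SE 0.21, adjusted p = 0.230, exact permutation p = 0.0571). Over the alternatives its adjusted p ran from 0.0132, without both Nnmt LKO a and Control b (value 0.996), to 0.533. Of 17 genes of lipoprotein receptors and uptake, 1 was higher and 2 lower. Lsr, a receptor for triglyceride-rich particles, was lower without overlap, at 194.4 ± 13.1 and 271.6 ± 48.1 CPM in Nnmt LKO and Control, with a log2 fold change of -0.48 (SE 0.14, adjusted p = 0.161 with edgeR, exact permutation p = 0.0286). The adjusted p of Lsr was 0.0329 in DESeq2's Wald test, and over all alternatives it ran from there to 0.9997, the value with hepatocyte marker scaling, where its unadjusted p was over 0.05. Vldlr had 0.52 (SE 0.22, adjusted p = 0.3499, exact permutation p = 0.0571) at under 10 CPM, and its unadjusted p was over 0.05 in 7 of 16 alternatives. These include total count only (0.54) and the fits without Control b (0.37), Control c (0.49), Nnmt LKO b (0.53), Nnmt LKO c (0.46) or Nnmt LKO d (0.47). Of 10 genes of plasma lipase control, 1 was lower, Pcsk6, a proprotein convertase, with -0.37 (SE 0.13, adjusted p = 0.280, exact permutation p = 0.0286). The unadjusted p of Pcsk6 was over 0.05 without Control a (-0.32), Control b (-0.28) or Nnmt LKO d (-0.28), and in 5 of 16 alternatives in all. Over the 6 lists, 8 of 115 tested genes were higher and 16 lower at an unadjusted p under 0.05 (20.9%), with 12 of these 24 among the transcription factors.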

How the data were processed

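The authors deposited 1 table of whole-number counts per gene, not normalized, with 4 columns for each genotype. Per the labels, reads were processed with HISAT2 and StringTie on mm10, without versions. The paper names HISAT2 for both alignment and quantification, while the labels also name StringTie. The annotation, the strand setting and the step that made whole-number counts are not given in the sources used here. Counts of a StringTie table may be derived from coverage, so they may not be single reads. The methods and the labels name different library kits. No 2 libraries of the same genotype were copies of one another, and pairs across genotypes were not put through this check.

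Genes with enough counts were kept by filterByExpr of edgeR 4.0.16 (minimum count 10) in R 4.3.3, which left 15291. Scaling by TMM, the quasi-likelihood test and Benjamini-Hochberg adjustment were run over all of them, with no covariate. The standard error is that implied by the F statistic, and log2 CPM used a prior count of 2. At these depths 3 counts stand for at most 0.0400 CPM, and the precision is set by 4 mice per genotype. Exact permutation tests were two-sided. TPM used the union of exons in GENCODE M21 of GRCm38, which held 15146 of 15291 tested genes. Tests were tried on simulated data first.

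Alternatives were other scalings (DESeq2's size factors, library size only, upper quartile, hepatocyte markers), DESeq2 1.42.0, limma voom (limma 3.58.1), no filter, each library left out in turn, the longest transcript as gene length and a window of 5 Mb. Leaving out Nnmt LKO a and Control b together was added after the values were seen. The genes and lists were chosen with earlier results of these data known. Named genes are Nnmt, the 10 genes, Apoc2, Apoc4, P4hb, Apobec1 and, in each other list, every gene with an adjusted p under 0.05 and up to 5 genes with the smallest unadjusted p under 0.05. Older symbols were matched by Ensembl identifier.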

Additional observations from a re-analysis of the deposited data

Results flagged for a closer look

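Of 84 groups of 4 libraries examined (each named gene, marker sum and TMM factor in each genotype), 11 had 1 library far from the other 3, where chance gives about 1 in 20, or 4.2. Of the 11, 8 were Nnmt LKO a, and these are not independent, since they share that library.

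Nnmt LKO a had a TMM factor of 1.21, with the other Nnmt LKO libraries at 0.952 to 0.977. Its Kupffer cell and macrophage markers summed to 2167 CPM (the others 1148 to 1228) and its stellate cell and fibroblast markers to 913.6 CPM (477.5 to 524.5). Apoa4 was at 7238 CPM there (3277 to 3761 in the others) and Apobec1 at 26.0 CPM (11.8 to 14.0). Lower than in the other Nnmt LKO libraries were Apom at 116.7 CPM (171.4 to 180.6), Apoc4 at 384.6 CPM (612.4 to 616.2) and Apof at 391.9 CPM (553.0 to 581.8).

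Control c stood apart from the other Control libraries in Apol7a at 45.9 CPM (69.4 to 72.0) and in Pon2 at 59.0 CPM (43.9 to 45.1). Nnmt LKO d stood apart in the sum of enterocyte markers at 58.8 CPM (41.3 to 43.4).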

How the results depend on the processing

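None of the 10 genes had an adjusted p under 0.05 under any of the 16 alternatives. Apoa1, Apoa4, Apob, Apoc1, Apoe and Mttp kept their direction in all of them, as did Nnmt, whose log2 fold change ran from -1.52 to -0.75. At an unadjusted p under 0.05, where TMM with edgeR gave 0 of the 10 genes (12.6% of all tested genes), there was 1, Apob each time, with DESeq2's size factors (12.7% of all), upper quartile scaling (12.8%), no filter (10.6%) or limma voom (13.3%). There were 3 with DESeq2's test (10.6% of all, and 4 of the 12 hepatocyte markers). There were 4 with library size only (9.40%, and 5 of those markers) and 4 with hepatocyte marker scaling (5.19%). With each library left out in turn the count ran from 0 to 2 (2 without Nnmt LKO a, 13.3% of all, and 2 without Control d, 14.0%), while the share of all tested genes ran from 8.08% to 14.1%. Genes without overlap numbered 3 with library size only (6.68% of all tested genes), 2 with hepatocyte marker scaling (3.61%) and 1 to 2 with each library left out (9.57% to 14.4%).

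Apoa5 was at 0.0095 with library size only and 0.0063 with hepatocyte marker scaling. With each library left out in turn, Apoa5 ran from -0.17 to 0.14 (above 0 without Control b or Nnmt LKO a), Apom from -0.17 to 0.053 (above 0 without the same libraries) and Apobec1 from -0.29 to 0.27 (below 0 without Control a, Control b or Nnmt LKO a). Without Nnmt LKO a and Control b together, chosen after the values were seen, 3 genes had an unadjusted p under 0.05 (13.1% of all) and 3 did not overlap (19.0% of all). The median of the 10 genes then turned to 0.065, Apoa2 to 0.060, Apoa5 to 0.24, Apoc3 to 0.071, Apom to 0.17 and Apobec1 to -0.43. The median of the 12 hepatocyte markers turned to 0.020 in that fit. These fits have fewer libraries or another scaling, and the cause of each turn was not tested.

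The count of transcription factors at an unadjusted p under 0.05 ran from 8 to 12, and that over the 6 lists from 16 to 29, while the share of all tested genes ran from 5.19% to 14.1%. The lowest counts, 8 and 16, were those with hepatocyte marker scaling, where that share was 5.19%. With the longest transcript as gene length, the order of the 10 genes in Control was the same. Among named genes of the other lists, the unadjusted p was 0.05 or over in 7 of 16 alternatives for Vldlr, 6 for Pla2g12b, 5 each for Pon2 and Pcsk6, 4 for Apof, and 1 each (hepatocyte marker scaling) for Apoc2, Tmem41b and Lsr. No paired analysis was possible because the columns carry no mouse numbers.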
